A study of Mus musculus with 5 samples.

Results

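The regions described here are Myc peaks that held TEAD and RNA polymerase II (RNAPol2) but no YAP, in mouse fibroblasts in which Myc and YAP were active together. ChIP-seq (chromatin immunoprecipitation followed by sequencing) was performed in 3T9 cells, an immortalized line of mouse embryonic fibroblasts. The labels give the genotype of all samples as 3T9MycER, and the study's methods describe a derivative of that line which also carries an inducible YAP mutant, YAPS127A. The study's figure legend describes the cells of its Myc, YAP and TEAD ChIP-seq panels as starved of serum and highly confluent. The 4 antibody samples were Myc, TEAD, RNAPol2 and YAP, each from cells treated with 400 nM 4-hydroxytamoxifen (OHT), which activates the MycER fusion protein, and with 2 µg/ml doxycycline, which turns on YAPS127A. There was 1 sample per antibody and 1 further sample labelled as input, whose title names no treatment and from which no peak list was used here. All 4 lists come from cells with both factors induced, so no condition without Myc or YAP activation is compared. Cells for the YAP ChIP received a protein crosslinker (DSG) in addition to the 1% formaldehyde that was used alone for the other antibodies, so the YAP list differs from the others in fixation too. The labels do not say whether the Myc antibody separates MycER from endogenous Myc. The libraries held between 20441605 tags (Myc) and 38345189 tags (RNAPol2).

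Members were the rows of the Myc peak list that shared at least 1 bp with a TEAD peak and with an RNAPol2 peak, and none with a YAP peak. There were 6322 of them among 14354 Myc peaks, or 44.0% (95% Wilson interval 43.2 to 44.9). With the stronger 50% of each list alone, 2326 peaks met the rule. The 6322 regions are called MTP peaks below. Myc peaks with TEAD, RNAPol2 and YAP are called YMTP peaks (2617), and Myc peaks with RNAPol2 and without TEAD and YAP are called MP peaks (3703). Members were chosen by these measured values alone, the presence or absence of a called peak in each of the 4 lists. Peak heights in those lists are therefore given as a description, with no test, and with 1 sample per antibody no p-value can be given. Wilson intervals treat peaks as independent and cover counting error only. The reads went through PCR and carry no molecular identifiers, so they do not count independent molecules.

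As background, Myc binds DNA together with its partner Max, mostly at E-box elements and in active promoters, and is best known for driving genes of growth, ribosome production and cell cycle entry. TEAD proteins bind DNA directly and are the main route by which YAP, a coactivator restrained by the Hippo kinases, reaches chromatin. RNAPol2 transcribes protein-coding genes and accumulates close to the start sites of many of them before elongation. The peaks were called on populations of cells, so an overlap shows that factors were found at one place and not that they occupied the same DNA molecule. Positions are in mm9, and peaks were not assigned to genes.

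MTP peaks were the most frequent kind of Myc peak with TEAD. They made up 63.5% of the 9959 Myc peaks with TEAD (62.5 to 64.4) and 90.7% of the Myc peaks with TEAD and without YAP (89.96 to 91.3). The remaining 651 had no RNAPol2 peak. From the side of the other lists, 14.5% of the TEAD peaks (7043 of 48571) and 12.4% of the RNAPol2 peaks (6165 of 49650) overlapped an MTP peak. Among RNAPol2 peaks with a fold enrichment of at least 20, that share was 60.0% (58.7 to 61.3). Among TEAD peaks with a fold enrichment of at least 20 it was 5.64% (4.98 to 6.38). MTP peaks thus took up most of the highest RNAPol2 peaks and few of the highest TEAD peaks.

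Fold enrichment, the height used below, is the authors' ratio of ChIP signal to local control background at the summit. Where a Myc peak overlapped several TEAD or RNAPol2 peaks, the highest was taken. The median Myc fold enrichment was 11.1 in MTP peaks, with quartiles of 7.61 and 17.9 and a range from 2.59 to 128.01. It was 8.89 in YMTP peaks and also 8.89 in MP peaks, so that the ratio of medians was 1.25 in both comparisons. Of the 100 Myc peaks of highest fold enrichment, 69 were MTP peaks, which made up 44.0% of the whole Myc list. A Myc fold enrichment of at least 20 was reached by 20.8% of MTP peaks (19.8 to 21.8), while 14.7% of all Myc peaks reached it. The shares were 14.3% in YMTP peaks and 10.8% in MP peaks.

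TEAD stood in the opposite order. The median TEAD fold enrichment was 7.70 in MTP peaks (quartiles 6.16 and 10.5), against 18.6 in YMTP peaks, a ratio of 0.413. The MTP median differed little from that of the whole TEAD list, 7.64. A TEAD fold enrichment of at least 20 was found in 3.89% of MTP peaks (3.44 to 4.40) and in 46.0% of YMTP peaks (44.1 to 47.9), and in 8.65% of all TEAD peaks. Measured by the −log10 p-value of the peak caller, the ratio of MTP over YMTP medians was 0.243. TEAD peaks were also narrower at MTP peaks, with a median width of 421 bp against 808 bp at YMTP peaks.

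Of the 3 classes, MTP peaks had the highest RNAPol2. Its median fold enrichment was 21.0 in MTP peaks (quartiles 13.3 and 30.1), against 14.2 in YMTP peaks and 16.7 in MP peaks. The ratios of medians were 1.48 over YMTP peaks and 1.26 over MP peaks. With classes set by the position of the Myc summit in place of peak overlap, both ratios over MP peaks had intervals that include 1. The ratios were 1.03 for RNAPol2 (0.987 to 1.08) and 1.05 for Myc (0.999 to 1.09). By that rule, Myc peaks that overlap TEAD away from their summit can count as MP peaks. Those ratios therefore do not compare peaks with and without TEAD overlap. An RNAPol2 fold enrichment of at least 20 was found in 53.2% of MTP peaks (52.0 to 54.4), in 36.0% of YMTP peaks and in 38.5% of MP peaks, and in 10.7% of all RNAPol2 peaks. Both Myc and RNAPol2 reached 20 in 1116 MTP peaks (17.7%, 16.7 to 18.6), in 11.4% of YMTP peaks and in 8.02% of MP peaks, and in 11.9% of all Myc peaks. All of Myc, RNAPol2 and TEAD did so in 34 MTP peaks (0.538%) and in 90 YMTP peaks (3.44%), and in 0.864% of all Myc peaks. These shares come from the lists that chose the members, and nothing further is read from their distance to the whole lists.

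**Figure D1:**
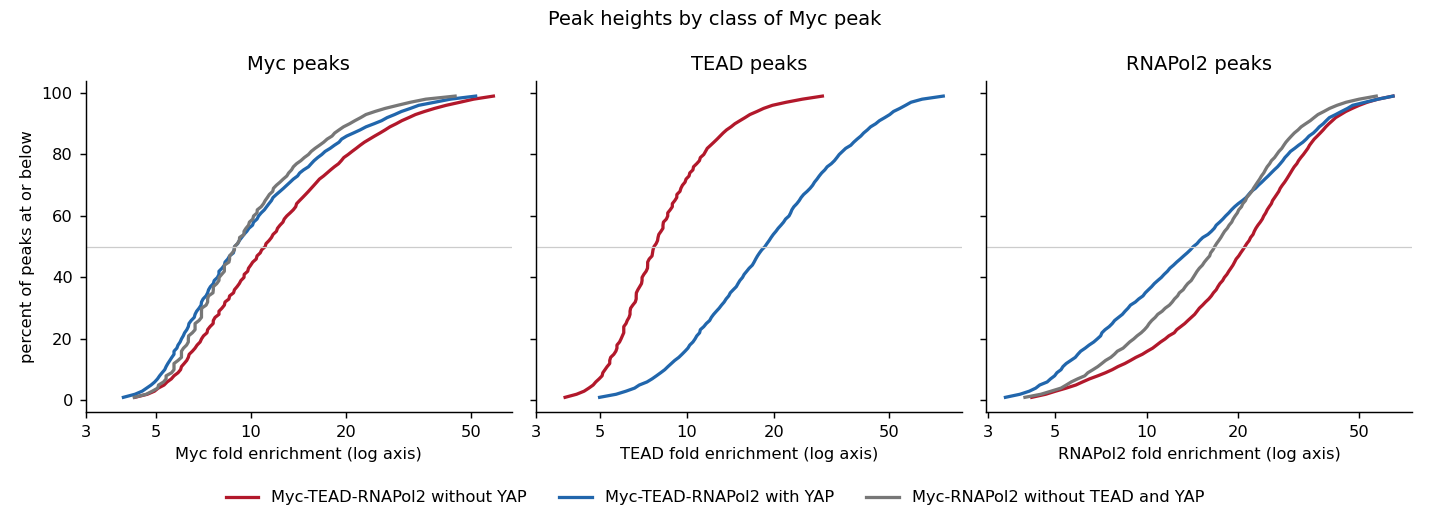
Percent of peaks at or below a given fold enrichment (vertical axis) for Myc, TEAD and RNAPol2 peaks (horizontal log axes), in MTP (red), YMTP (blue) and MP peaks (grey), from the 1st to the 99th percentile. The red curve lies to the right for Myc and RNAPol2 (medians 11.1 and 21.0) and to the left for TEAD (median 7.70 against 18.6).

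Peak width went with these differences. The median width of the Myc peak was 743 bp in MTP peaks, 668 bp in YMTP peaks and 544 bp in MP peaks. Across MTP peaks, Myc fold enrichment and Myc width had a Spearman's rho of 0.704. In 5 equal bands of Myc width, taken over MTP and MP peaks, the share with TEAD was 46.8% in the narrowest band (288 to 417 bp) and 81.5% in the widest (1010 to 3191 bp). A wide Myc peak meets the overlap of 1 bp with TEAD more easily than a narrow peak. The part of this in the ratios over MP peaks was not tested. Within these bands of width the Myc heights of MTP and MP peaks were close to each other. The median Myc fold enrichment in the narrowest band was 6.22 in MTP peaks and 6.48 in MP peaks, a ratio of 0.959, and in the widest band it was 19.5 in MTP peaks and 18.4 in MP peaks, a ratio of 1.06. After matching on width in 20 bands, a step chosen after seeing the data, the Myc ratio of MTP over MP peaks was 0.962, below 1 where the unmatched ratio was 1.25. Width and fold enrichment are both read from the same Myc peak, so matching on width also brings the Myc heights together. How much of the change in the Myc ratio comes from this was not tested. The RNAPol2 ratio of MTP over MP peaks lay between 1.03 and 1.16 in the 5 bands. It was 1.07 after the matching in 20 bands, where the unmatched ratio was 1.26.

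Whether MTP peaks differ from YMTP peaks within bands of TEAD height was then asked, since TEAD was lower in MTP peaks. The 8939 Myc-TEAD-RNAPol2 peaks were split into 5 equal bands of TEAD fold enrichment. The share without YAP was 95.2% in the lowest band (TEAD fold 2.00 to 6.31), 92.3% and 82.9% in the next 2, 61.6% in the fourth band and 21.5% in the highest (17.5 to 101.81). MTP peaks thus made up nearly all peaks with low TEAD and a minority of those with the highest TEAD. In the lowest band, Myc and RNAPol2 were no higher in MTP peaks. The median Myc fold enrichment there was 10.8 in MTP peaks and 11.5 in the 86 YMTP peaks, and the median RNAPol2 fold enrichment was 20.3 in MTP peaks and 20.8 in YMTP peaks.

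In the fourth band, the median Myc fold enrichment was 11.1 in MTP peaks and 8.89 in YMTP peaks, a ratio of 1.25. In the highest band it was 9.29 in MTP peaks and 8.59 in YMTP peaks, a ratio of 1.08. RNAPol2 separated further, with medians of 21.4 in MTP peaks and 14.4 in YMTP peaks in the fourth band, and 20.6 in MTP peaks and 12.8 in YMTP peaks in the highest. The median RNAPol2 height of MTP peaks therefore stayed between 20.3 and 21.4 over the 5 bands, while that of YMTP peaks was 20.8 and 21.75 in the lowest 2 bands, 19.3 in the third and 12.8 in the highest. The quartile ranges of the 2 classes overlapped in every band. TEAD height was not equal within the bands. Its median in the highest band was 21.95 in MTP peaks and 28.9 in YMTP peaks, and in the fourth 12.7 in MTP peaks and 13.8 in YMTP peaks. The part of this in the RNAPol2 difference was not tested.

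**Figure D2:**
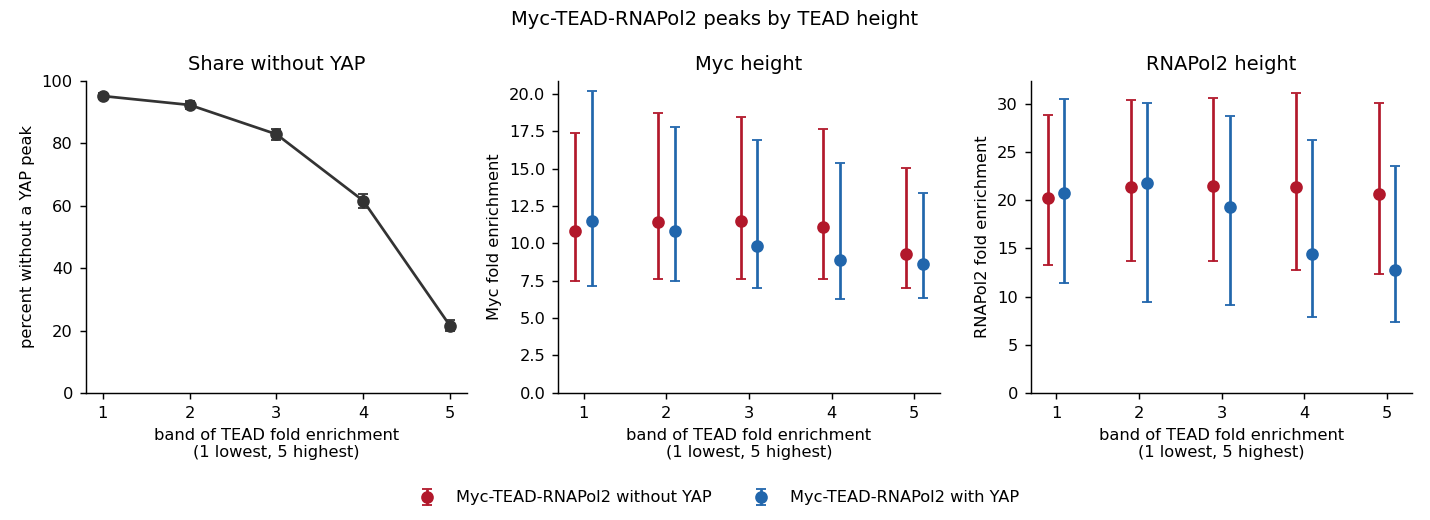
Myc-TEAD-RNAPol2 peaks in 5 equal bands of TEAD fold enrichment (horizontal axes): the percentage without a YAP peak with 95% Wilson intervals (left), and the median Myc (middle) and RNAPol2 fold enrichment (right) with quartiles as bars, for MTP (red) and YMTP peaks (blue). The share without YAP is 95.2% in the lowest band and 21.5% in the highest, and RNAPol2 medians of MTP peaks stay between 20.3 and 21.4.

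The share without YAP was also compared over bands of the other heights. By Myc fold enrichment it was 59.6% in the lowest of 5 bands (57.3 to 61.8) and 77.9% in the highest (75.9 to 79.7). By RNAPol2 fold enrichment it was 51.5% in the lowest band (49.2 to 53.8), 79.4% in the fourth and 75.7% in the highest. High Myc and high RNAPol2 thus went with a larger share of peaks without YAP, and high TEAD with a smaller one.

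Myc and RNAPol2 heights went together across MTP peaks, and TEAD height went with neither. Spearman's rho between Myc and RNAPol2 fold enrichment was 0.487 over the 6322 peaks, and between 0.307 and 0.568 on each of 20 chromosomes. It was 0.530 across YMTP peaks and 0.316 across MP peaks. Between Myc and TEAD it was 0.002 across MTP peaks and −0.111 across YMTP peaks. Between TEAD and RNAPol2 it was 0.025 across MTP peaks and −0.110 across YMTP peaks. On pileup, the height in stacked tags before division by the control, the values across MTP peaks were 0.481 for Myc and RNAPol2, 0.017 for Myc and TEAD and 0.029 for TEAD and RNAPol2. These are relations across regions of single samples that share 1 control library, and Myc width went with RNAPol2 height as well (0.470).

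By decile of Myc fold enrichment, set over MTP, YMTP and MP peaks together, RNAPol2 was higher in each higher decile for MTP peaks. In the lowest decile (Myc fold 1.87 to 5.72) the median RNAPol2 fold enrichment was 11.5 in MTP peaks, 7.70 in YMTP peaks and 12.1 in MP peaks. In the sixth decile it was 19.7 in MTP peaks, 15.1 in YMTP peaks and 16.7 in MP peaks. In the highest decile (25.73 to 128.01) it was 33.5 in MTP peaks, 33.6 in YMTP peaks and 28.4 in MP peaks. MTP and YMTP peaks thus had nearly the same RNAPol2 median at the strongest Myc peaks and differed at the weakest, where MTP and MP peaks lay close together.

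**Figure D3:**
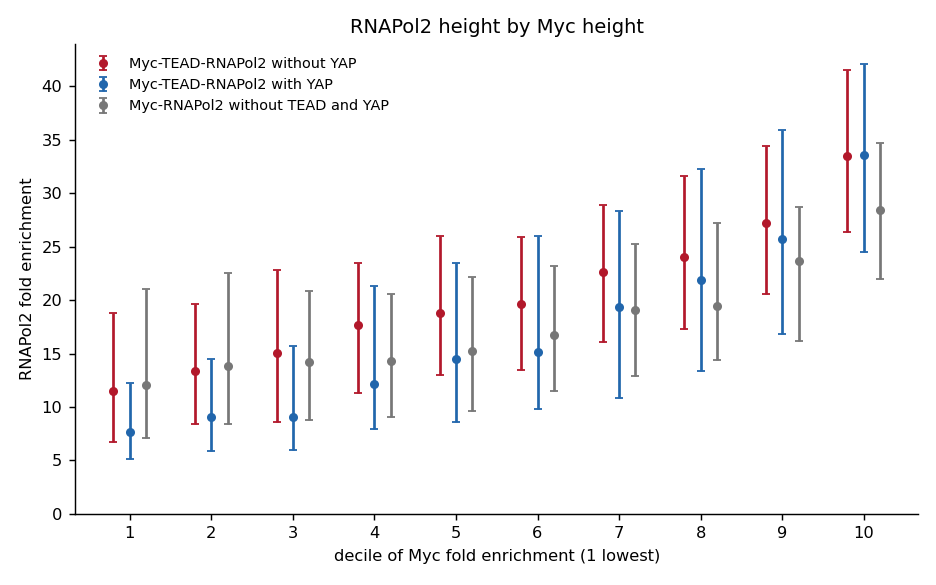
Median RNAPol2 fold enrichment (vertical axis, bars from the lower to the upper quartile) by decile of Myc fold enrichment (horizontal axis, 1 the lowest) for MTP (red), YMTP (blue) and MP peaks (grey). In the highest decile the medians are 33.5 (MTP), 33.6 (YMTP) and 28.4 (MP), and in the lowest 11.5 (MTP), 7.70 (YMTP) and 12.1 (MP).

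The summits placed RNAPol2 closer to Myc than TEAD. The median distance from the Myc summit to the nearest RNAPol2 summit was 112 bp in MTP peaks, and to the nearest TEAD summit 176 bp. The RNAPol2 summit was the nearer one at 61.1% of MTP peaks (59.9 to 62.3) and at 53.4% of YMTP peaks (51.5 to 55.3). A TEAD summit lay within 100 bp of the Myc summit at 29.0% of MTP peaks (27.9 to 30.1) and at 34.7% of YMTP peaks (32.9 to 36.6). Within 500 bp the curves met, at 91.6% of MTP peaks and 91.1% of YMTP peaks. The Myc summit lay inside the TEAD peak at 58.3% of MTP peaks and 86.9% of YMTP peaks, where TEAD peaks were wider.

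Almost all MTP peaks, 97.9% (97.6 to 98.3), had the Myc summit inside the RNAPol2 peak, as did 96.0% of YMTP peaks and 96.1% of MP peaks. The Myc peak lay wholly inside the RNAPol2 peak at 68.3% of MTP peaks, 66.5% of YMTP peaks and 63.5% of MP peaks. Read along the chromosome, the RNAPol2 summit stood between those of Myc and TEAD at 39.2% of MTP peaks (38.0 to 40.4) and at 32.6% of YMTP peaks (30.9 to 34.5). The Myc summit was the middle one at 38.4% of MTP peaks and 40.0% of YMTP peaks, and the TEAD summit at 21.9% of MTP peaks and 26.7% of YMTP peaks. TEAD was thus the least frequent middle position in both classes. Distances were longer at higher RNAPol2. In the lowest band of RNAPol2 fold enrichment the median Myc to TEAD distance was 119 bp in MTP and also in YMTP peaks, and in the highest it was 209 bp in MTP peaks and 203 bp in YMTP peaks. The Myc peaks were wider there too, with medians of 995 bp in MTP peaks of the highest band and 489.5 bp in those of the lowest.

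**Figure D4:**
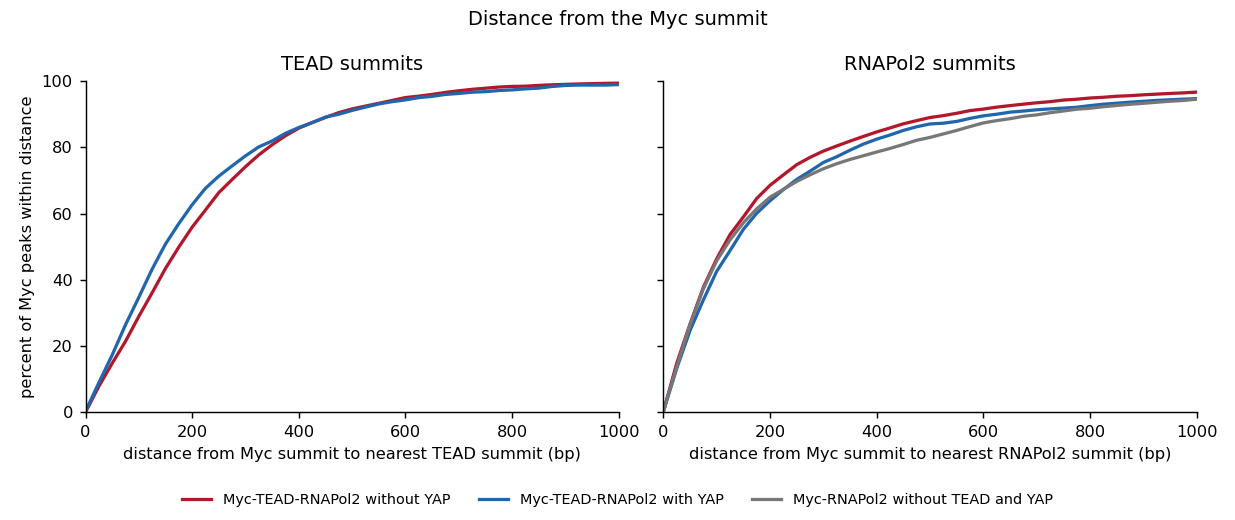
Percent of Myc peaks (vertical axis) with a TEAD summit (left) or an RNAPol2 summit (right) within a given distance in bp of the Myc summit (horizontal axis), for MTP (red), YMTP (blue) and, on the right, MP peaks (grey). At 100 bp, 29.0% of MTP and 34.7% of YMTP peaks had a TEAD summit, and 46.4% of MTP and 42.6% of YMTP peaks an RNAPol2 summit.

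Most MTP peaks stood alone. More than 1 TEAD peak was found at 11.8% of them, with at most 4, and more than 1 RNAPol2 peak at 1.39%. The median gap between neighbouring MTP peaks was 97876 bp, and 9.17% had another MTP peak within 1000 bp. Of the RNAPol2 peaks that held MTP peaks, 232 (3.76%) held 2 or more. The largest number, 4, lay in 1 RNAPol2 peak of 12733 bp on chr19:55814048-55826780, with an RNAPol2 fold enrichment of 23.5.

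The absence of YAP from MTP peaks was read at the edges of the rule. The median gap to the nearest YAP peak was 48829 bp for MTP peaks and 61332 bp for MP peaks. A YAP peak lay within 100 bp of 1.08% of MTP peaks (0.849 to 1.36) and of 0.216% of MP peaks (0.110 to 0.426). Within 1000 bp the shares were 6.18% of MTP peaks and 5.51% of MP peaks. At 148 MTP peaks (2.34%) the TEAD peak itself held YAP, outside the Myc peak, and at 362 (5.73%) the RNAPol2 peak did. Either was the case at 388, or 6.14% (5.57 to 6.76). Among the 100 MTP peaks of highest TEAD fold enrichment it was the case at 33 (24.6 to 42.7%). The 5934 MTP peaks without YAP on the partner peaks had a median RNAPol2 fold enrichment of 20.8, and the ratio over YMTP peaks was 1.46.

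The overlaps were seldom short. The median overlap was 331 bp with TEAD and 702 bp with RNAPol2, both overlaps were at least 100 bp in 6033 MTP peaks, and 23 had an overlap of 10 bp or less. Just inside the rule, the regions at chr14:65271400-65271827, chr15:36721327-36721779 and chr8:72149124-72149470 shared 1 bp with TEAD. Their Myc fold enrichments were 7.15, 5.32 and 7.51. Nearest to YAP was the region at chr7:132724478-132725078, which touched a YAP peak with a gap of 0 bp and had folds of 9.21 for Myc, 28.4 for TEAD and 16.8 for RNAPol2. The next lay at chr5:139229966-139231289, with a gap of 1 bp and a Myc fold of 28.6, and at chr2:155050228-155050578, with a gap of 3 bp and a Myc fold of 5.89. Just outside, the regions at chr10:127846137-127847035 and chr5:31521965-31523723 shared 1 bp with YAP, and that at chr9:106724696-106725018 shared 3 bp. Their YAP fold enrichments were 8.43, 9.36 and 5.62.

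The strongest MTP peaks by Myc were not the strongest by TEAD. The highest Myc fold enrichment in the whole list, 128.01, was at chr11:59859454-59860388, where TEAD reached 13.4 and RNAPol2 27.0. Its Myc and TEAD summits were 5 bp apart. The next, at chr5:142843067-142844096, had a Myc fold of 105.46 with TEAD at 6.05 and RNAPol2 at 13.2. At chr11:6427306-6429450 the Myc fold was 100.69, RNAPol2 stood at 50.96 and the region held 2 TEAD peaks. The region at chr5:134659083-134660616 had a Myc fold of 96.94, and that at chr15:99802793-99804209 one of 93.97 with 3 TEAD peaks. Outside chromosome 18, whose regions are counted but not named, they were followed by chr1:120218110-120219678 (89.89), chr5:20930614-20932125 (88.30) and chr8:26864242-26865680 (86.72). In these 8 regions TEAD ranged from 6.05 to 19.4 and RNAPol2 from 13.2 to 53.5, and the nearest YAP peak was between 2341 and 238497 bp away.

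The strongest MTP peaks by TEAD had low Myc, with 1 exception. The highest TEAD fold enrichment was 99.65, at a Myc peak on chr2:131831194-131831580 whose Myc fold was 5.92 and whose TEAD overlap was 33 bp. The TEAD summit there was 959 bp from the Myc summit. TEAD folds of 71.3, 64.95 and 62.5 were found at chr9:116293386-116293821, chr6:37391690-37392068 and chr13:49704184-49704577, with Myc folds of 7.57, 6.99 and 6.99. In these 4 regions the TEAD peak also held YAP, 114 to 665 bp from the Myc peak. The exception was chr11:57984960-57985851, with a TEAD fold of 68.7, a Myc fold of 42.75 and an RNAPol2 fold of 28.5. Its Myc summit was 137 bp from the TEAD summit and 4 bp from the RNAPol2 summit, and the nearest YAP peak was 2577 bp away.

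At the 5 MTP peaks of highest RNAPol2, Myc fold enrichment ranged from 7.38 to 26.2. The region at chr11:115885107-115885922 had an RNAPol2 fold of 83.7 with a Myc fold of 7.38. A pair of neighbouring MTP peaks, chr9:44142534-44143715 and chr9:44143795-44144468, shared an RNAPol2 peak of fold 83.3 and had Myc folds of 21.9 and 10.0. The region at chr9:88417179-88418617 had an RNAPol2 fold of 83.1 and a Myc fold of 22.1. That at chr5:116009215-116010017 had folds of 80.8 for RNAPol2 and 26.2 for Myc.

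By the sum of ranks over Myc, TEAD and RNAPol2, the leading region was chr5:100857952-100859429, where fold enrichment was 54.4 for Myc, 26.2 for TEAD and 57.65 for RNAPol2. Next came chr3:151872275-151874413, chr4:120241827-120243363, chr17:32172823-32174572 and chr2:75540795-75543689. Over these 5 regions Myc ranged from 47.65 to 65.1, TEAD from 19.4 to 36.5 and RNAPol2 from 46.45 to 63.8. The region on chromosome 4 had a YAP peak 170 bp away, on its TEAD and RNAPol2 peaks.

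The lowest rank sums were found at chr3:5860659-5860990, chr16:57391396-57391999 and chr11:108872894-108873559. All folds there lay between 2.24 and 3.23, while the Myc pileup was 111, 124 and 228, far over the MTP median of 40.0. The control level (pileup over fold enrichment) was 13.6, 12.2 and 25.1 times the lowest in the Myc list, and the Myc and TEAD summits were at most 9 bp apart. Such control levels were rare, with 5 or more times the lowest level at 5 MTP peaks and 2 or more times at 104. The median control level was 1.06 times the lowest in MTP peaks, 1.18 in YMTP peaks and 1.00 in MP peaks, and its part in the differences between the classes was not tested.

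MTP peaks were found on all of the 20 chromosomes 1 to 19 and X, and 9 lay on other sequences. Median heights of MTP peaks ranged among the chromosomes from 9.85 to 12.6 for Myc, from 7.11 to 8.21 for TEAD and from 17.7 to 23.9 for RNAPol2. The Myc ratio of MTP over YMTP peaks was above 1 on all 20 chromosomes (1.02 to 1.58). The RNAPol2 ratio was above 1 on 19 of them (up to 2.02), and on X, which had 128 MTP peaks among 139, it was 0.898.

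The share without YAP differed more. It was lowest on chromosome 15, where 265 of 644 Myc-TEAD-RNAPol2 peaks were MTP peaks, or 41.1% (37.4 to 45.0). It was 57.0% on chromosome 19 (52.4 to 61.4) and highest on X, 92.1% (86.4 to 95.5). The other 17 chromosomes ran between 66.9% and 79.9%. The control level at MTP peaks was 1.40 times the lowest on chromosomes 15 and 10 and 1.23 times on chromosome 19. On chromosome 10 the share was 76.1% (71.3 to 80.3). By band of TEAD fold enrichment, the share was lower on chromosomes 15 and 19 than on the chromosomes other than 10, 15 and 19 in each of the 5 bands. In the lowest band it was 73.6% on chromosome 15 (64.7 to 81.0) and 89.9% on chromosome 19 (81.9 to 94.6), against 97.0% (96.0 to 97.8) on those chromosomes. In the fourth band it was 23.5% on chromosome 15 (17.4 to 30.9) and 50.5% on chromosome 19 (40.9 to 60.0), against 66.1% (63.7 to 68.5). Chromosome 10 had 96.6% in the lowest band and 64.4% in the fourth, and stood apart from those chromosomes in the third band, with 73.4% (61.5 to 82.7) against 87.2% (85.4 to 88.8). With bands of TEAD pileup, which is not divided by the control, the fourth band gave 36.6% on chromosome 15 (29.8 to 43.9) and 54.3% on chromosome 19 (45.3 to 63.1), against 62.9% (60.3 to 65.4) on those chromosomes. Chromosome 10 was not lower in the third band of pileup, with 87.0% (77.7 to 92.8) against 85.8% (83.9 to 87.5). In the fourth it was higher, with 76.6% (66.0 to 84.7). The control level was read at MTP peaks only, and its part in these shares was not tested.

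**Figure D5:**
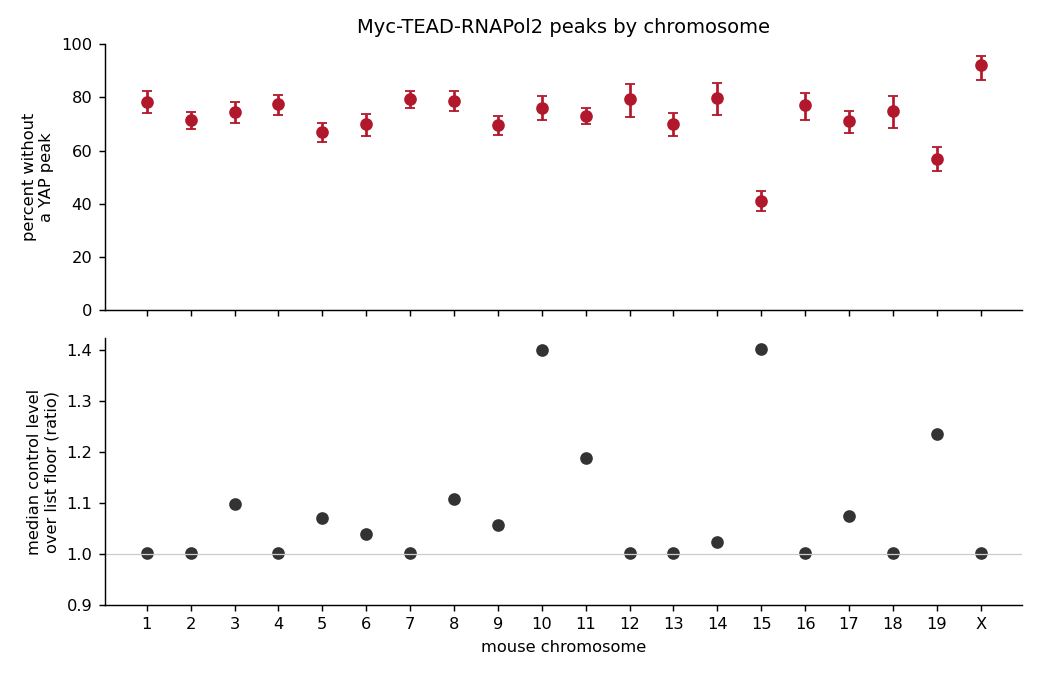
Percent of Myc-TEAD-RNAPol2 peaks without a YAP peak, with 95% Wilson intervals (upper axis), and median control level at MTP peaks over the lowest level of the Myc list (lower axis, which starts at 0.9), for each mouse chromosome. Chromosome 15 has the lowest share (41.1%) and X the highest (92.1%). The control level is 1.40 on chromosomes 10 and 15.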

How the data were processed

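Peaks of 4 ChIP samples (Myc, TEAD, RNAPol2 and YAP, 1 each, grouped by their titles) were analysed. Tools credited to the submitters' processing notes are MACS2 2.0.9, BWA 0.6.2 and SAMtools, with mm9 as the build. Narrow peaks were called by the authors in 1 run per antibody, with 1e-05 as the largest p-value. Per the file headers, all runs used 1 control library of 60189064 tags, local background windows spanned 1000 and 10000 bp, and at most 2 tags were kept per position. Tags were 51 bp long, and the ChIP libraries held 20441605 (Myc), 31770727 (TEAD), 38345189 (RNAPol2) and 29528304 (YAP) tags. Whether the control is the input sample is not stated.

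The deposited values are a pileup (signal of extended tags at the summit), a fold enrichment (ratio of that signal to the local background), the −log10 of the p-value and the −log10 of the q-value. Positions, deposited as 1-based coordinates and used as such, count as other values. Fold enrichment was compared only within its list.

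Overlap was at least 1 bp. Shares have 95% Wilson intervals, and medians were checked against order-statistic intervals. The range of a ratio divides opposite limits of the intervals of its 2 medians, so it is wider than a 95% interval. Named regions were the 8 MTP peaks of highest Myc fold, the 5 highest by TEAD, by RNAPol2 and by rank sum, the 3 of lowest rank sum and those at the edges of the rule, passing over chromosome 18. Members, classes and rules were chosen with earlier results of these data known. Alternatives covered the overlap, list length, −log10 q, summits, YAP distance, sequences and height measure. Matching on width (20 bands) and leaving out YAP on partner peaks were added after seeing the data. Routines were tested on simulated data. Python 3.11.15, numpy 2.4.6, pandas 2.3.3, scipy 1.17.1 and matplotlib 3.10.9 were used. The gene table at hand is of another assembly (GRCm38.p6), so genes and sequences are not given.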

Additional observations from a re-analysis of the deposited data

How the results depend on the processing

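No paired analysis was possible because each antibody had 1 sample. Over all alternatives, 1 ratio changed direction: the Myc ratio of MTP over MP peaks was 0.962 after matching on Myc width (chosen after seeing the data). Since width and fold are read from the same peak, this matches on part of the outcome. Matching also gave 1.15 for the Myc ratio over YMTP peaks and 1.07 for the RNAPol2 ratio over MP peaks. With the stronger 50% of each list, 2326 MTP peaks were left, the Myc ratio was 1.11 over YMTP and 1.06 over MP peaks, the RNAPol2 ratio 1.18 over YMTP and 1.12 over MP peaks, and the Myc to TEAD distance 210 bp. At a −log10 q of at least 10, the Myc ratio over MP peaks was 1.09, the RNAPol2 ratio over MP peaks 1.14, the TEAD ratio 0.373 and the distance 194 bp. With the Myc summit inside the TEAD and RNAPol2 peaks and outside YAP, the Myc ratios were 1.30 over YMTP and 1.05 over MP peaks, the RNAPol2 ratios 1.71 over YMTP and 1.03 over MP peaks, and the distance 123 bp. Both ratios over MP peaks then had intervals that include 1 (0.999 to 1.09 for Myc, 0.987 to 1.08 for RNAPol2). MTP peaks of this setting can overlap YAP away from the Myc summit. Its ratios over YMTP peaks therefore do not compare peaks with and without YAP overlap. MP peaks of this setting can overlap TEAD away from the Myc summit. Their medians were 10.16 for Myc and 19.47 for RNAPol2, against 8.89 and 16.74 with classes by peak overlap. The medians of MTP peaks were 10.71 for Myc and 20.09 for RNAPol2, against 11.12 and 21.045. When shared peaks had to cover 50% of the narrower one, the Myc ratio over MP peaks was 1.29 and the distance 162 bp. On pileup the Myc ratios were 1.14 over YMTP and 1.29 over MP peaks, the RNAPol2 ratio over YMTP peaks 1.34 and the TEAD ratio 0.373. On −log10 p the Myc ratio over MP peaks was 1.41, the RNAPol2 ratios 1.62 over YMTP and 1.45 over MP peaks, and the TEAD ratio 0.243. The TEAD ratio was 0.445 when YAP was kept 1000 bp away and 0.394 without chromosomes 10, 15 and 19. The cause of these shifts was not tested. The other 41 values stayed within the order-statistic interval of the value reported, or within 1.5 times for the count. The lists hold called peaks only, so the lack of a YAP peak at the depth of that library does not show that YAP was absent.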
